A study of Mus musculus with 28 samples.

Results

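miR-206-3p and miR-133b-3p are the 3p products of a pair of microRNA genes that lie next to each other, and both are followed here in mouse hearts after infarction. They were chosen by name and are 2 of the 1485 mature miRNA names counted in 28 small RNA libraries. The mice were of the outbred stock Hsd:ICR(CD-1), and the tissue was left ventricular wall from the zone remote from the infarct. The left anterior descending (LAD) coronary artery was ligated at postnatal day 7 (P7) or day 1 (P1) to give myocardial infarction (MI), and shams were operated on at the same ages without ligation. At 3 days there were 4 libraries each of MI P7 and sham P7 (age 10 days) and of MI P1 and sham P1 (age 4 days). At 21 days there were 3 libraries each of MI P7 and sham P7 (age 28 days) and of MI P1 and sham P1 (age 22 days). The pups shared a stock, tissue zone and housing with their mothers, and no mutant or transgene is named. Whether every library is its own mouse is not written in the labels, and p-values therefore reflect sample-to-sample spread, which may in part be technical.

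A microRNA is a short RNA cut from a hairpin. It guides the Argonaute protein to messenger RNAs, which it recognises mainly through its seed, the bases from position 2 to position 8. miR-206 belongs to the miR-1 family and miR-133b to the miR-133 family. Both families are known from muscle: miR-1 and miR-133a are abundant in heart and skeletal muscle, and miR-206 is best known from skeletal muscle, where it rises as muscle precursors differentiate and as injured muscle is repaired. The hairpins of miR-206 and miR-133b can come from one primary transcript, and the host RNA linc-md1 is known from differentiating mouse myoblasts.

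The sequences are shown because the pair comes from one locus but belongs to different seed families, and because miR-133b-3p is hard to tell from its relative miR-133a-3p. They are RefSeq sequences on GRCm38.p6, matched by name for both members, with the seed in capitals.
mmu-miR-206-3p: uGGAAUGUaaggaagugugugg
mmu-miR-133b-3p: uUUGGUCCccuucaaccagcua
The other strands of the same hairpins are the 5p arms, printed without capitals.
mmu-miR-206-5p: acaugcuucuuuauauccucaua
mmu-miR-133b-5p: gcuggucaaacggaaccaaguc
In the hairpins, the capitals mark the counted 3p arm.
mir-206 hairpin: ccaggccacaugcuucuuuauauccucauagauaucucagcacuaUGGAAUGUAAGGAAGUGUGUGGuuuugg
mir-133b hairpin: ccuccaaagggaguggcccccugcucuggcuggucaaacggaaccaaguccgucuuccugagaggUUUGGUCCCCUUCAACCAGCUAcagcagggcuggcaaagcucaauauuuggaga
In the sequence table miR-6349 and miR-6382 carry the miR-206-3p seed too. The relatives miR-1a-3p, miR-1b-3p and miR-133a-3p are named only, and their seeds were not compared here.

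The hairpins lie on the plus strand of chromosome 1 (GRCm38). The mir-206 hairpin spans 20679010 to 20679082 (73 bases), and its 3p arm spans 20679055 to 20679076. The mir-133b hairpin spans 20682769 to 20682887 (119 bases), and its 3p arm spans 20682834 to 20682855. There are 3686 bases between them. GENCODE release M21 places both within the long intergenic RNA gene Gm28653 (20669882 to 20684298). RefSeq names the RNA from 20669882 to 20682958 Lincmd1, also written Linc-md1. In the spliced transcript Gm28653-202, mir-206 lies in intron 2 and mir-133b in exon 3 of 3. In the other annotated transcript, which has a single exon, mir-133b lies wholly inside the exon and mir-206 overlaps its start. A read of the mature miRNA does not show which transcript it was cut from.

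**Figure D1:**
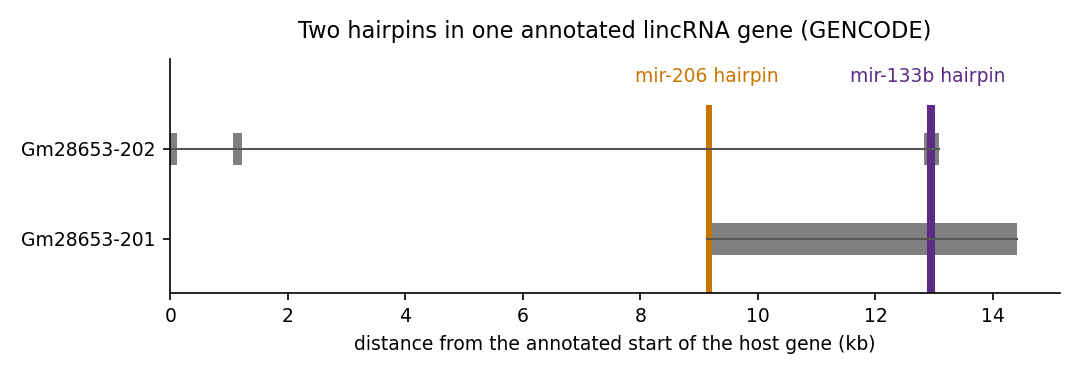
The annotated host gene of both hairpins, with distance from its start in kb along the horizontal axis and the 2 GENCODE transcripts as rows (grey boxes, exons; thin lines, introns). The coloured bars are the hairpins, with mir-206 in an intron of Gm28653-202 and mir-133b in its last exon, 3686 bases apart.

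Both members were counted under 1 hairpin each. miR-133b-3p was listed in all 28 libraries. miR-206-3p was listed in 16 of 16 libraries at 3 days and in 2 of 12 at 21 days. The 5p arms, miR-206-5p and miR-133b-5p, were listed in 0 of 28 libraries. The follow-ups were sequenced from different kits, so their levels are not compared.

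Deposited counts per library summed to 1.29 to 13.0 M (M, 1e6) at 3 days and 18.2 to 26.9 M at 21 days, and to 0.858 to 8.90 M and 14.9 to 21.5 M once each mature name was counted once. Levels are counts per M counts (CPM) scaled by the TMM method. At 3 days the miR-206-3p level rested on 1 to 56 reads per library at P7 and on 10 to 920 at P1. Depth differed between the P1 groups, with 5.61 to 13.0 M deposited counts in MI P1 against 1.56 to 9.26 M in sham P1. Sham P1 replicates 1 and 2 carry the code 1078 in their titles, and replicates 3 and 4 the code 1103. These pairs stood apart at 3 days, so the members' fits that rest on sham P1 are also given without one pair. The labels do not explain the code. At 21 days each group carries a title code of its own, so code and group cannot be told apart there. The heart muscle markers miR-208a-3p, miR-208b-3p and miR-499-5p were above 0 in every group, with summed levels of 800 to 1898 CPM in MI P7, 1004 to 3809 in sham P7, 3968 to 9813 in MI P1 and 505 to 9590 in sham P1 at 3 days.

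At 3 days miR-206-3p was higher after MI than after sham at P7, where the groups did not overlap. At P1 it also passed the test as higher after MI, but the groups overlapped. That P1 result held in 11 of 16 fits that left out a library. In sham hearts miR-206-3p was lower at P7 than at P1. Each of these results failed the test when the title code was taken as a random block in limma-voom. miR-133b-3p did not pass the test in any of these comparisons, and its values are given beside those of miR-206-3p. The sham comparison shares its libraries with the MI comparisons. Over the 16 libraries miR-133b-3p followed miR-133a-3p, whose hairpins lie at other loci and whose reads are hard to tell from its own. At 21 days miR-206-3p was at the limit of detection, and miR-133b-3p did not differ beyond its spread.

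In MI P7 hearts at 3 days miR-206-3p had 34, 26, 56 and 19 reads, or 39.2, 22.2, 41.0 and 16.2 CPM. In sham P7 hearts it had 1, 1, 3 and 6 reads, or 0.848, 1.26, 3.29 and 3.51 CPM. All MI P7 libraries lay above all sham P7 libraries, a pattern that 14.6% of the 446 miRNAs tested showed in that direction. The means were 29.7 ± 12.3 CPM in MI P7 and 2.23 ± 1.37 CPM in sham P7 (SD, n = 4 each).

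The log2 fold change of miR-206-3p at P7 was 3.66 ± 0.69 (SE; 95% interval 2.21 to 5.11), a 12.6-fold higher level after MI, with an adjusted p of 0.0047 in edgeR's quasi-likelihood test. It was the fourth highest of the 446 fold changes, 5.16% of which were called higher. Pooled over libraries, 135 of 4.17 M reads in MI P7 against 11 of 5.84 M in sham P7 gave a ratio of 17.2, with an exact 95% interval of 9.30 to 35.2 that covers counting error only. An exact permutation test of log2 CPM gave a difference of 3.52 and p = 0.0286 (two-sided; 0.0857 adjusted over 9 tests), which is the smallest p that 4 against 4 libraries allow. The call held in 16 of 16 fits that left out 1 library, with log2 fold changes of 3.39 to 4.04. It was lost when the title code was a random block in limma-voom (3.53, adjusted p = 0.996). All sham P7 libraries carry 1 code and no MI P7 library carries it, so code and operation cannot be told apart there.

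In MI P1 hearts at 3 days miR-206-3p had 920, 314, 419 and 289 reads, or 153, 29.3, 85.2 and 60.8 CPM. In sham P1 hearts it had 69, 161, 19 and 10 reads, or 16.1, 30.2, 18.3 and 5.38 CPM. MI P1 replicate 1 was the highest of all 16 libraries, and MI P1 replicate 2 fell just below sham P1 replicate 2, so the groups overlapped. The means were 82.1 ± 52.5 CPM after MI and 17.5 ± 10.2 CPM after sham (SD, n = 4 each).

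The log2 fold change of miR-206-3p at P1 was 2.21 ± 0.56 (SE; 95% interval 1.02 to 3.40), 4.63-fold higher after MI, with an adjusted p of 0.0230 in edgeR's test. It was the sixth highest of 446, and 1.35% of the miRNAs tested were called higher in this comparison. That share rests on few libraries: edgeR called 82 miRNAs with all of them, 0 without MI P1 replicate 1, 2 or 4 or sham P1 replicate 4, 1 without sham P1 replicate 3, and 164 and 162 without sham P1 replicate 1 or 2. Without code 1103 it called 0 of 483 (50 at an unadjusted p under 0.05), and without code 1078 it called 348 of 459, 164 of them higher. The exact permutation test of log2 CPM gave a difference of 2.18 and p = 0.0571 (adjusted 0.129). The call was kept in 11 of 16 fits that left out 1 library (log2 fold changes 1.69 to 2.73, adjusted p up to 0.0775). It was lost without MI P1 replicate 1, 2 or 4 and without sham P1 replicate 3 or 4. In these fits the unadjusted p of miR-206-3p in edgeR was 2.02e-04 to 0.00849, and 0 or 1 of all miRNAs tested passed after adjustment. Without the sham P1 libraries of code 1103 the value was 1.78 (adjusted p = 0.226), and without MI P1 replicate 1 as well it was 1.16 (adjusted p = 0.519). Without the pair of code 1078 it was 2.71 (adjusted p = 0.00159). MI P1 replicate 1 carries code 1059 and the other MI P1 libraries code 1086. No code is shared by MI P1 and sham P1, so code and operation cannot be told apart there either.

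The MI effect on miR-206-3p was not shown to differ between operation ages. The difference of the 2 log2 fold changes, P7 minus P1, was 1.44 ± 0.86 (SE; 95% interval -0.38 to 3.27; adjusted p = 0.391 in edgeR). In that comparison 0% of the miRNAs tested were called by edgeR, 71 had an unadjusted p under 0.05, and DESeq2 called 6 and limma-voom 0. The count depends on the title codes, with 301 of 459 called without code 1078 and 1 of 483 without code 1103. The miR-206-3p value was 0.91 (adjusted p = 0.407) without code 1078 and 1.86 (adjusted p = 0.411) without code 1103.

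Between the sham groups at 3 days, all P7 libraries lay below all P1 libraries (0.848 to 3.51 CPM against 5.38 to 30.2 CPM), a pattern that 8.30% of the miRNAs tested showed in that direction. The log2 fold change of sham P7 over sham P1 was -2.91 ± 0.68 (SE; 95% interval -4.34 to -1.48), with an adjusted p of 0.0111 in edgeR. In this comparison 18.2% of miRNAs were called lower, and the median over all 446 was -0.53, so the miR-206-3p value is 1 of many below zero. Counted from the highest, it ranked 426 of 446. The exact permutation test gave -2.65 and p = 0.0286 (adjusted 0.0857). The call was kept in 15 of 16 fits that left out 1 library (-3.37 to -2.50), and was lost without sham P7 replicate 2 (adjusted p = 0.0551). Without the sham P1 libraries of code 1078 the value was -2.23 (adjusted p = 0.0803), and without those of code 1103 it was -3.19 (adjusted p = 0.00035). The 98 calls of this comparison became 17 when sham P7 replicate 2 was left out, 185 when sham P1 replicate 3 was, and 352 of 483 without code 1103.

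Ordered by mean level at 3 days, miR-206-3p was highest in MI P1, then MI P7, then sham P1, and lowest in sham P7. MI P1 overlapped MI P7, and MI P7 overlapped sham P1. Of these neighbours in the order, sham P1 and sham P7 alone did not overlap. The 10-day-old hearts after MI thus had miR-206-3p at levels within the range of the 4-day-old groups, and the 10-day-old sham hearts did not.

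**Figure D2:**
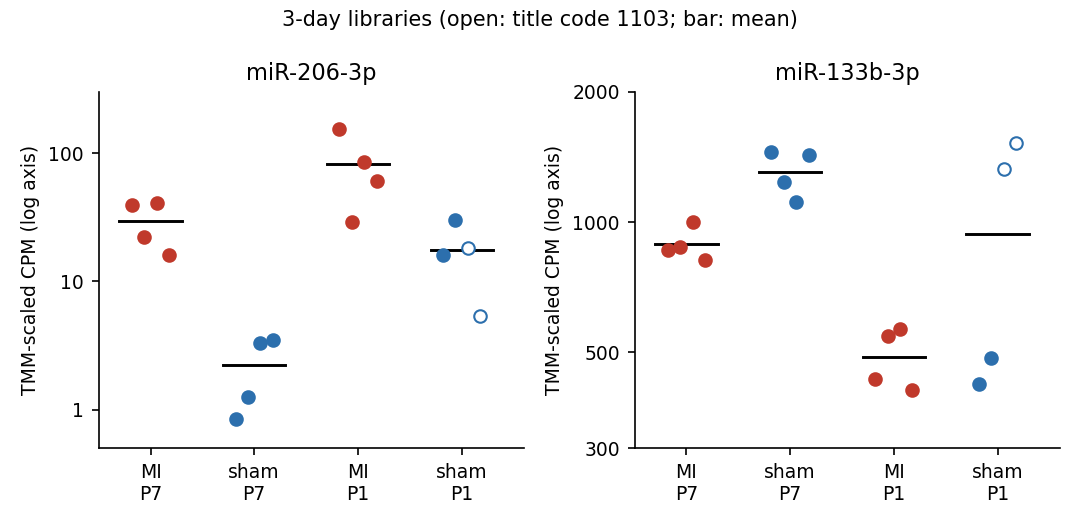
TMM-scaled CPM of miR-206-3p and miR-133b-3p per library at 3 days, on log axes; each point is 1 library, bars are group means, and open points are the sham P1 libraries of title code 1103. miR-206-3p lies at 16.2 to 41.0 CPM in MI P7 against 0.848 to 3.51 CPM in sham P7, while miR-133b-3p lies at 816 to 1000 CPM in MI P7 against 1112 to 1454 CPM in sham P7.

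miR-133b-3p had 863, 874, 1000 and 816 CPM in MI P7 hearts at 3 days, against 1454, 1239, 1112 and 1428 CPM in sham P7 hearts. All MI P7 libraries lay below all sham P7 libraries, as they did for 6.05% of the miRNAs tested, while 5.61% of miRNAs were called in either direction by edgeR. The means were 888 ± 78.8 CPM in MI P7 and 1308 ± 162 CPM in sham P7 (SD, n = 4 each). The log2 fold change was -0.56 ± 0.37 (SE; 95% interval -1.35 to 0.23; adjusted p = 0.5 in edgeR), where 0.448% of miRNAs were called lower. The exact permutation test, which borrows no spread from other miRNAs, gave -0.55 and p = 0.0286 (adjusted 0.0857). The gap depends on the scaling: under total count scaling the groups overlapped, at 868 to 1081 CPM in MI P7 against 914 to 1156 CPM in sham P7, and the log2 fold change was -0.08 (adjusted p = 0.951 in edgeR).

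At P1 miR-133b-3p had 434, 544, 565 and 410 CPM in MI hearts, against 422, 486, 1325 and 1522 CPM in sham hearts. The sham libraries split by title code: the pair of code 1078 averaged 454 CPM, within the MI P1 range, and the pair of code 1103 averaged 1423 CPM, above it. The log2 fold change was -0.94 ± 0.38 (SE; 95% interval -1.74 to -0.15; adjusted p = 0.0812 in edgeR), in a comparison in which 18.4% of miRNAs were called, 17.0% lower. Without sham P1 replicate 1 or 2 it passed (-1.37 and -1.15, adjusted p = 0.00908 and 0.0218). Without the pair of code 1103 it was 0.04 (adjusted p = 0.970), and without the pair of code 1078 it was -1.75 (adjusted p = 1.41e-05). The MI effect on miR-133b-3p at P1 thus rests on which sham libraries it is set against.

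Between the sham groups miR-133b-3p averaged 1308 ± 162 CPM at P7 and 939 ± 566 CPM at P1 (SD, n = 4 each). The edgeR estimate of P7 over P1 was 0.48 ± 0.37 on the log2 scale (SE; 95% interval -0.31 to 1.27; adjusted p = 0.351), with 22.0% of miRNAs called. This too turned on the title code, with 1.64 (adjusted p = 1.05e-04) without code 1103 and -0.10 (adjusted p = 0.825) without code 1078. The MI effect on miR-133b-3p differed between ages by 0.38 ± 0.53 (SE; 95% interval -0.73 to 1.50; adjusted p = 0.754). From highest to lowest, the mean levels were ordered sham P7, sham P1, MI P7 and MI P1.

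Since the hairpins share a locus, the members can be set against each other within a library, which needs no scaling factor. Adapters and primers favour some sequences, so this ratio is not one of molecules, but it can be compared between libraries of 1 kit. In MI P7 hearts there were 4.55, 2.54, 4.10 and 1.99 miR-206-3p reads per 100 miR-133b-3p reads, against 0.0583, 0.102, 0.296 and 0.246 in sham P7 hearts. In MI P1 hearts there were 35.3, 5.38, 15.1 and 14.8, against 3.81, 6.22, 1.38 and 0.353 in sham P1 hearts. The share of miR-206-3p was therefore higher in every MI P7 than in every sham P7 library, and the P1 groups overlapped through MI P1 replicate 2 and sham P1 replicate 2.

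The log2 ratio of miR-206-3p to miR-133b-3p differed by 4.08 between MI P7 and sham P7 (exact permutation p = 0.0286, adjusted 0.0857 over 9 tests). It differed by 2.93 between MI P1 and sham P1 (exact p = 0.0571, adjusted 0.129) and by -3.33 between sham P7 and sham P1 (exact p = 0.0286, adjusted 0.0857). Without code 1103 these values were 1.55 (exact p = 0.267) for MI at P1 and -4.71 (exact p = 0.133) between shams. With the libraries left there, 0.133 is the smallest p that this test allows.

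The ratio of miR-133b-3p to miR-133a-3p asks whether the related names moved as 1. miR-133a-3p is among the most abundant miRNAs of striated muscle, and the names are so alike in sequence that sequencing errors or trimming can move reads between them. How the authors' counting treated such reads is not given in the sources used here, so the miR-133b-3p count is uncertain to that extent. Over the 16 libraries at 3 days there were 0.544 to 1.09 miR-133b-3p reads per 100 miR-133a-3p reads, with a median of 0.643. In MI P7 hearts there were 0.548, 0.654, 0.669 and 0.627, against 0.544, 0.581, 0.632 and 0.553 in sham P7 hearts. These groups overlapped, and the log2 ratio differed by 0.11 (exact permutation p = 0.286).

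In MI P1 hearts there were 0.874, 1.09, 0.858 and 0.882 miR-133b-3p reads per 100 miR-133a-3p reads, against 0.757, 0.794, 0.590 and 0.608 in sham P1 hearts. All MI P1 libraries lay above all sham P1 libraries, including both title codes. The log2 ratio differed by 0.43 (exact permutation p = 0.0286, adjusted 0.0857), and by 0.25 without code 1103 (exact permutation p = 0.133). The latter is the smallest p that the libraries left allow. The level of miR-133a-3p itself was 52986 ± 8719 CPM after MI at P1, against 147929 ± 103870 CPM after sham (SD, n = 4 each). It was called lower (-1.48 ± 0.43, SE; adjusted p = 0.0283 in edgeR). Its sham P1 libraries split by title code in the same way, with means of 58470 CPM for code 1078 and 237389 CPM for code 1103.

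**Figure D3:**
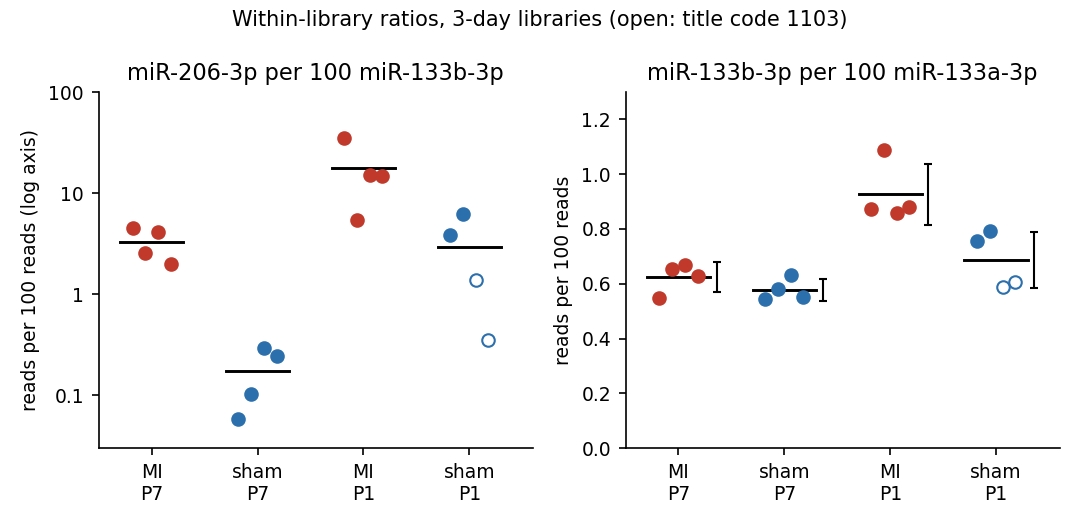
Reads of miR-206-3p per 100 reads of miR-133b-3p (left, log axis) and of miR-133b-3p per 100 reads of miR-133a-3p (right, error bars SD) in each 3-day library; horizontal bars are means and open points are title code 1103. On the left MI P7 lies at 1.99 to 4.55 against 0.0583 to 0.296 in sham P7, and on the right all 16 libraries lie between 0.544 and 1.09.

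Across the 16 libraries at 3 days, the miRNAs whose log2(CPM + 0.5) followed miR-206-3p most closely among 347 with a mean of at least 10 CPM were miR-134-5p (Pearson r = 0.89), miR-409-3p (0.86) and miR-494-3p (0.86). miR-134-5p ranged from 528 to 637 CPM in MI P7, 88.9 to 160 CPM in sham P7, 432 to 816 CPM in MI P1 and 202 to 365 CPM in sham P1. Like miR-206-3p it was lowest in the sham P7 libraries. miR-133b-3p stood at r = -0.75, rank 339 of 347, and miR-133a-3p also at -0.75. The family member miR-1a-3p had r = 0.23. These values describe libraries of 1 kit that share their groups and the title code split, and carry no test.

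For miR-133b-3p the closest were miR-133a-3p (r = 0.99), miR-330-5p (0.95) and miR-149-5p (0.94) over the same 16 libraries. miR-149-5p ranged from 2521 to 4478 CPM in MI P7, 4148 to 5791 CPM in sham P7, 513 to 844 CPM in MI P1 and 508 to 4958 CPM in sham P1. The wide sham P1 range is that of miR-133b-3p too. miR-206-3p ranked 259 of 347 for miR-133b-3p (r = -0.75), and every miRNA ranked after it had an r as low or lower. miR-1a-3p, at rank 233, already had r = -0.67. The members, which share a locus, thus had a negative r across these pooled groups, but such an r was common for miR-133b-3p and not particular to the pair. miR-133b-3p ran with miR-133a-3p, which comes from other loci. The part of reads moved between these alike names, and of the sham P1 code split, was not tested.

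Among the striated muscle miRNAs tested, miR-206-3p was alone in being called higher after MI at 3 days. The list held 19 names, of which 16 were listed and 12 tested. After MI at P7, 1 of 12 was called higher (miR-206-3p) and 0 lower, beside 5.16% and 0.448% of all miRNAs tested, with a median log2 fold change of -0.68 against -0.01 over all miRNAs tested. After MI at P1, 1 of 12 was called higher (miR-206-3p) and 3 lower, beside 1.35% and 17.0% of all, with a median of 0.17 against 0.03. The 3 were miR-133a-3p, miR-208a-5p (-1.64 ± 0.46, SE; adjusted p = 0.0264) and miR-486a-5p (-2.47 ± 0.61, SE; adjusted p = 0.0230). miR-208a is encoded in a heart muscle myosin gene, and miR-486a is enriched in muscle and in red cells. When limma-voom took the title code as a random effect, 0 of 446 miRNAs were called in each 3-day comparison (12 for MI at P7, 49 for MI at P1 and 24 between shams at an unadjusted p under 0.05). All calls of this list, at either age and between shams, are lost there, and those at P1 also without code 1103.

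Between sham P7 and sham P1 at 3 days, 1 of the 12 was called higher, as were 3.81% of all miRNAs (miR-486a-5p, 1.81 ± 0.60, SE; adjusted p = 0.0412) and 2 lower, as were 18.2% of all (miR-206-3p and miR-133a-5p, -1.66 ± 0.50, SE; adjusted p = 0.0344). The list's median was -0.61 against -0.53 over all tested. miR-1a-3p, which is of the same family as miR-206-3p, was at 0.23 ± 0.88 (SE) for MI at P1, -0.78 ± 0.88 for MI at P7 and -0.56 ± 0.88 between shams, with no call. Its sham P1 libraries split by title code, with 96165 and 88270 CPM for code 1078 against 2380 and 2795 CPM for code 1103. miR-1b-3p was listed in 7 of 16 libraries and not tested. None of miR-208a-3p, miR-208b-3p and miR-499-5p was called in any 3-day comparison, where their unadjusted p was at least 0.0208 and 0 of 3 passed. Their sham P1 libraries split by title code too. For miR-208a-3p these had 2841 and 1036 CPM (code 1078) against 43.4 and 45.7 CPM (code 1103).

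**Figure D4:**
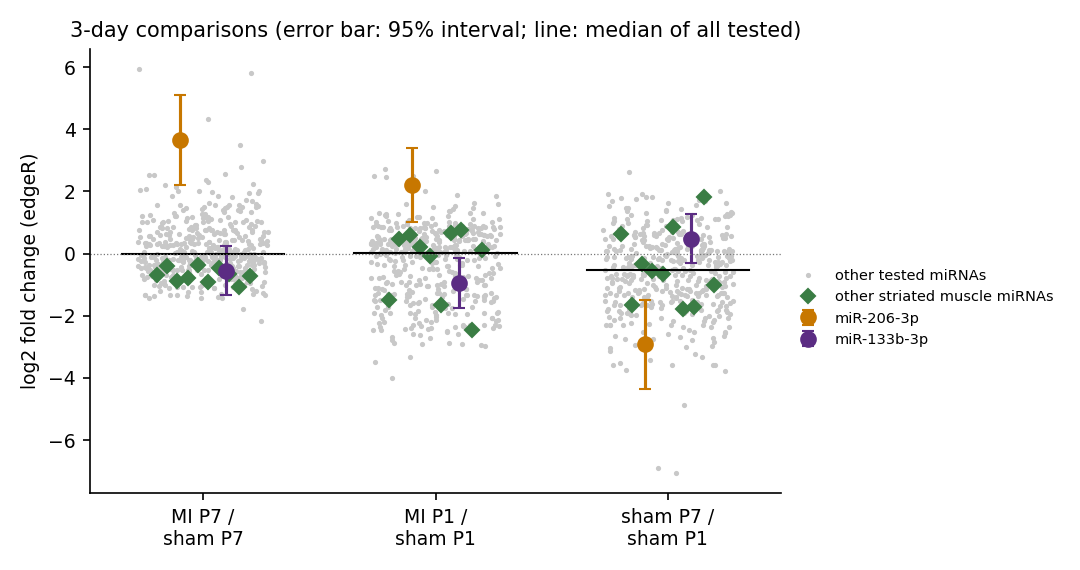
Log2 fold changes from edgeR for the 446 miRNAs tested at 3 days in MI P7 over sham P7, MI P1 over sham P1 and sham P7 over sham P1; circles with 95% intervals are the members, diamonds the other 10 striated muscle miRNAs, and the black line is the median of all. miR-206-3p stands at 3.66, 2.21 and -2.91, and miR-133b-3p at -0.56, -0.94 and 0.48.

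Sums of other cell types' markers differed between these groups too. In these bulk samples, fewer cells of a type and less RNA per cell cannot be told apart. The striated muscle list summed to 164593 to 186935 CPM in MI P7 against 243232 to 339990 CPM in sham P7, and to 91798 to 160682 CPM in MI P1 against 161595 to 268343 CPM in sham P1. At P7 most of each sum was miR-133a-3p, with means of 142742 CPM in MI P7 and 228635 CPM in sham P7. At P1 most was miR-133a-3p and miR-1a-3p, whose sham P1 libraries split by title code. These sums therefore do not stand for the whole list, whose median log2 fold change was -0.68 at P7 and 0.17 at P1. The 5 fibroblast miRNAs, all above 0, summed to 6109 to 9854 CPM in MI P7 against 2394 to 4616 CPM in sham P7, with 1 of 5 called higher, beside 5.16% of all. They summed to 17393 to 21911 CPM in MI P1 against 1689 to 15784 CPM in sham P1, with 0 of 5 called. The 4 leukocyte miRNAs, all above 0, summed to 2619 to 3525 CPM in MI P7 against 2015 to 4257 CPM in sham P7, with 0 of 4 called. Their sums overlapped, but their median log2 fold change at P7 was 1.95 against -0.01 over all miRNAs tested. miR-150-5p alone of the 4 had a value below 0 there (-0.53). They summed to 2387 to 4435 CPM in MI P1 against 1618 to 2166 CPM in sham P1, where 1 of 4 was called higher (miR-142a-3p, 2.71 ± 0.83, SE; edgeR adjusted p = 0.0345) and 1 lower (miR-150-5p, -1.89 ± 0.43, SE; adjusted p = 0.0230). The part of these cell types in the miR-206-3p result was not tested.

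MI P1 replicate 1, the library with the most miR-206-3p, also had the most of the liver miRNA miR-122-5p, at 1641 CPM. Without this library the log2 fold change of miR-206-3p at P1 was 1.69 (adjusted p = 0.0775 in edgeR), and the part of liver RNA in its level was not tested. The 2 liver names summed to 1.15 to 208 CPM in MI P7, 3.29 to 59.1 CPM in sham P7, 52.8 to 1642 CPM in MI P1 and 10.6 to 159 CPM in sham P1. Of the 3 neuronal names 2 were above 0, with sums of 6.92 to 63 CPM in MI P7, 52.7 to 118 CPM in sham P7, 26.9 to 61.2 CPM in MI P1 and 57.1 to 73.7 CPM in sham P1. miR-124-3p was at 0 in all 3-day groups, and the 1 neuronal name tested was not called. No miRNA on the lists marks skeletal muscle apart from the members themselves, so skeletal muscle tissue in a sample and miR-206-3p made by the heart cannot be told apart here.

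At 21 days miR-206-3p had 4 reads in all, of 227 M. They fell in MI P7 replicate 1 (1 read, 0.0520 CPM) and MI P7 replicate 3 (3 reads, 0.147 CPM), and the other 10 libraries had 0. In those 10 libraries a count of 0 allows up to 3 reads, or 0.139 to 0.197 CPM before TMM scaling. The miRNA did not pass the filter on low counts, and no fold change is given. This limit covers counting error and the TruSeq kit of these libraries, and it says nothing of the level relative to 3 days.

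miR-133b-3p at 21 days had 773, 981 and 2196 CPM in MI P7 hearts, against 1374, 1494 and 1283 CPM in sham P7 hearts. Replicates 1 and 2 of MI P7 lay below all sham P7 libraries and replicate 3 above them. The means were 1316 ± 768 CPM in MI P7 and 1384 ± 105.6 CPM in sham P7 (SD, n = 3 each). The log2 fold change was -0.07 ± 0.29 (SE; 95% interval -0.70 to 0.56; adjusted p = 0.879 in edgeR). Without MI P7 replicate 3 it was -0.60 and passed the test (adjusted p = 0.0224), in a comparison in which 8.86% of the 598 miRNAs tested were called lower with all libraries. The value therefore turned on 1 library.

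In MI P1 hearts at 21 days miR-133b-3p had 1304, 1032 and 1016 CPM, against 1272, 1126 and 1154 CPM in sham P1 hearts. The groups overlapped, with means of 1117 ± 162 CPM after MI and 1184 ± 77.4 CPM after sham (SD, n = 3 each). Their log2 fold change was -0.08 ± 0.29 (SE; 95% interval -0.72 to 0.55; adjusted p = 0.989 in edgeR), where 0.502% of miRNAs were called. The MI effect differed between ages by 0.01 ± 0.42 (SE; 95% interval -0.88 to 0.91; adjusted p = 0.985), where 9.87% of miRNAs were called. Between shams all P7 libraries (1283 to 1494 CPM) lay above all P1 libraries (1126 to 1272 CPM), as they did for 14.2% of the miRNAs tested. Under total count scaling they overlapped (1151 to 1421 CPM in sham P7 against 1236 to 1254 CPM in sham P1). The edgeR value was 0.23 ± 0.29 (SE; 95% interval -0.41 to 0.86; adjusted p = 0.836). The exact permutation test gave 0.22 and p = 0.1, the smallest that 3 against 3 libraries allow. edgeR called 0% of miRNAs in this sham comparison (72 had an unadjusted p under 0.05), and DESeq2 called 14.

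At 21 days miR-133a-3p was called lower in MI P7 than in sham P7, while miR-133b-3p was not with all libraries. miR-133a-3p had 48187, 85688 and 65445 CPM in MI P7, against 147666, 128134 and 124969 CPM in sham P7, with no overlap, as 18.7% of miRNAs had none in that direction. Its log2 fold change was -1.01 ± 0.21 (SE; adjusted p = 0.00844 in edgeR), and it differed from the effect at P1 by -1.09 ± 0.30 (SE; adjusted p = 0.0359), where 2.01% of miRNAs were called lower. With lane as a covariate 0 of 598 miRNAs were called in that age difference (121 at an unadjusted p under 0.05), so this call is lost there, and with 1 library left out 16 to 117 were called, against 59. Lanes were uneven, with 1 of 3 MI P1 libraries in lane 3 and all 3 sham P1 libraries in it. Its partner arm miR-133a-5p was called lower too (-1.11 ± 0.25, SE; adjusted p = 0.0110). These were the 2 calls among 13 striated muscle miRNAs tested, in a comparison with 22.1% of all miRNAs called, and the list's median was -0.07 against 0.03 over all tested. As each 21-day group carries its own title code, code and operation cannot be told apart in these comparisons.

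In MI P7 at 21 days there were 1.60, 1.15 and 3.35 miR-133b-3p reads per 100 miR-133a-3p reads, against 0.931, 1.17 and 1.03 in sham P7. Replicate 3 had the highest ratio of all 12 libraries, and replicate 2 lay within the sham range. The log2 ratio differed by 0.82 (exact permutation p = 0.2), and by 0.39 to 1.16 with 1 library left out. In MI P1 there were 1.00, 0.885 and 0.906, against 0.988, 1.09 and 1.08 in sham P1, a difference of -0.18 (exact permutation p = 0.2). Sham P7 and sham P1 differed by -0.02 (exact permutation p = 1).

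**Figure D5:**
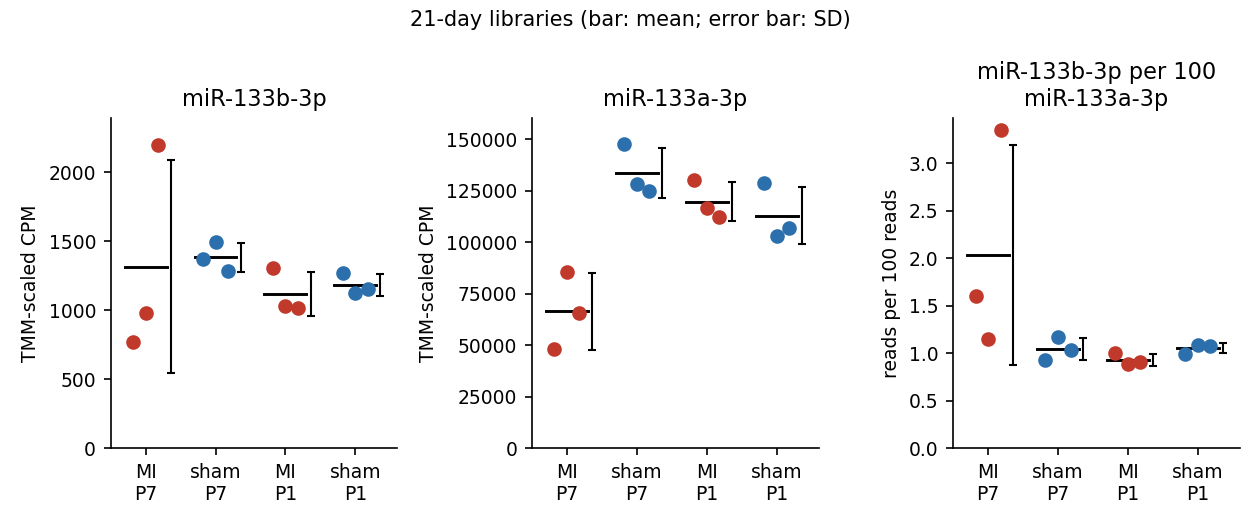
TMM-scaled CPM of miR-133b-3p and of miR-133a-3p, and reads of miR-133b-3p per 100 reads of miR-133a-3p, in each 21-day library; bars are means and error bars SD (n = 3). In MI P7 the miR-133b-3p points lie at 773, 981 and 2196 CPM on both sides of sham P7, while the miR-133a-3p points lie at 48187 to 85688 CPM, below all sham P7 points.

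Across the 12 libraries at 21 days, the miRNAs closest to miR-133b-3p among 282 with a mean of at least 10 CPM were miR-345-5p (r = 0.92), miR-208a-3p (0.90) and miR-29c-5p (0.87). miR-133a-3p was at 0.22. miR-345-5p had 39.6 to 166 CPM in MI P7, 59.9 to 71.3 CPM in sham P7, 48.9 to 57.3 CPM in MI P1 and 46.1 to 52.1 CPM in sham P1, and its highest value was in the library with the most miR-133b-3p, MI P7 replicate 3. The r values without that library were not computed. Marker sums spread widely within MI P7 at 21 days: the 3 erythroid miRNAs summed to 6868 to 18012 CPM in MI P7 against 7316 to 8548 CPM in sham P7. The 5 fibroblast miRNAs summed to 19476 to 45373 CPM against 10411 to 11451 CPM, with 5 of 5 called higher where 13.2% of all miRNAs were. Their part in the miR-133b-3p values was not tested.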

How the data were processed

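The authors deposited whole-number counts per hairpin and mature miRNA for 28 libraries, with no normalization. Per the labels' protocols, 100 ng of total RNA was used with the QIAseq kit and a NextSeq500 (3 days) or the TruSeq Small RNA kit and a HiSeq2000 (21 days). Tools named in the submitters' processing notes are edgeR and Bowtie2 2.2.2, with the build GRCm38. Which counter was used, and whether molecular identifiers were, is not given in these sources.

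The highest count over hairpins was kept per mature name. Each follow-up was fitted alone, its 4 groups together, in edgeR 4.0.16 (R 4.3.3; TMM, filterByExpr, robust quasi-likelihood F test), with Benjamini-Hochberg adjustment over 446 (3 days) or 598 (21 days) names and calls under 0.05; the script was tested on simulated data. The SE is the fold change over the square root of F. Alternatives used DESeq2 1.42.0 and limma 3.58.1. Single values and ratios (pseudocount 0.5) were tested by exact two-sided permutation in scipy 1.17.1. The planned ratio of miR-206-3p to miR-133b-3p at 21 days was not computed, since 10 of 12 libraries had 0 reads, which left 9 tests in each family.

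Besides the members, their 5p arms, family relatives, the striated muscle list and the 3 miRNAs with the highest r are named. miR-122-5p, miR-124-3p, miR-142a-3p, miR-150-5p and the marker sums are named because their levels stand beside a result. Members and lists were chosen with earlier results of these data known. Places and sequences come from GENCODE M21 and RefSeq.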

Additional observations from a re-analysis of the deposited data

Results flagged for a closer look

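MI P1 replicate 2 at 3 days had 1.09 miR-133b-3p reads per 100 miR-133a-3p reads, far from the other MI P1 libraries at 0.858 to 0.882 by Dixon's test for 4 samples. Chance flags about 1 in 20 groups. Its miR-206-3p level, 29.3 CPM, was also the lowest of MI P1, and it is the most deeply sequenced 3-day library (8.90 M counts).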

How the results depend on the processing

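At 3 days the 3 calls of miR-206-3p kept their direction under every alternative run (no filter or one of 10 CPM, total count scaling or DESeq2 size factors, DESeq2, limma-voom, sums over hairpins, the 2 groups alone, which gave no value for the sham comparison, title code block, libraries left out). The MI P1 call was lost with the 2 groups alone (2.38), the title code block (2.48), without code 1103 (1.78) and without MI P1 replicate 1 too (1.16, chosen after seeing the data), and ranged over 1.69 to 2.73 with 1 library left out. The MI P7 call was lost under the title code block (3.53). The sham call was lost under that block (-2.59) and without code 1078 (-2.23), with a range of -3.37 to -2.50. The cause was not tested.

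miR-133b-3p for MI at P1, 3 days, was -1.53 (called) when summed with miR-133a-3p, -1.75 (called) without code 1078, 0.0417 without code 1103 and 0.0169 without MI P1 replicate 1 as well, with a range of -1.37 to -0.63. Its age difference was -0.0361 with DESeq2 size factors, -0.11 with no filter, -0.0370 in DESeq2, -0.63 without code 1103, -0.62 without MI P1 replicate 1 too and 1.14 (adjusted p = 0.00970) without code 1078. Between shams it was 1.64 without code 1103, 1.66 without MI P1 replicate 1 too (both called) and -0.10 without code 1078. At 21 days MI at P1 gave 0.0793 when summed with miR-133a-3p, 0.12 with lane as a covariate and 0.17 in lane 3 alone (range -0.21 to 0.00795). MI at P7 gave 0.23 under total count scaling, -0.997 (called) when summed with miR-133a-3p and 0.14 in lane 3 alone (range -0.60 to 0.17). The age difference gave -0.13 in limma-voom, -1.08 (called) when summed, -0.22 with lane as a covariate and -0.0346 in lane 3 alone (range -0.54 to 0.25). The log2 CPM difference at 21 days under total count scaling was 0.13 for MI at P7 (range -0.67 to 0.0878) and -0.00185 between shams. The ratio of miR-133b-3p to miR-133a-3p between shams at 21 days ranged over -0.10 to 0.0575. Summing brings in the far larger miR-133a-3p count. The cause of the other changes was not tested.

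With the title number as a replicate block at 21 days, miR-133b-3p gave -0.14 for MI at P7, -0.03 for MI at P1, -0.10 for the age difference and 0.27 between shams, with 0 calls. Same-numbered libraries correlated at -0.28 to 0.29 in their deviations from group means, and differently numbered ones at -0.409 to 0.463. With 3 libraries per group these deviations are tied to each other, so the check cannot show whether same-numbered libraries share more than a number. No paired analysis was possible at 3 days because the titles there give letters that pair no libraries across groups. Total count scaling moved the median log2 fold change of all miRNAs at 3 days to 0.47 for MI at P7, 0.33 for MI at P1 and -0.82 between shams, against -0.01, 0.03 and -0.53 under TMM. Few reads limit miR-206-3p most in sham P7 at 3 days (11 reads in 4 libraries, of 5.84 M) and at 21 days (4 reads of 227 M). These were not the shallowest libraries, as MI P7 at 3 days had 135 reads of 4.17 M.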
